A study of Mus musculus with 2 samples.

Results

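The endothelial genes of the epididymal fat pad were taken as 33 genes known from the cells that line blood and lymph vessels, selected by gene symbol in the probe annotation. Of these genes, 32 were measured by 50 of the 22690 probe sets in the table, and 13 of the 32 had several probe sets. No probe set carried the symbol Gpihbp1, so that gene has no value here. On at least 1 array, 23 of the 32 measured genes reached an intensity of 32, the floor used here to separate measured from dim probe sets. The other 9 stayed below the floor on both arrays.

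The tissue was epididymal white adipose tissue, a fat pad next to the epididymis and testis, of male mice on standard chow. The knockout sample was a pool of RNA from 5 PPARβ/δ knockout mice aged 12 weeks on a mixed Sv129/C57BL/6 background, and the wild-type sample a pool from 5 wild-type mice aged 12 to 16 weeks. Each pool was hybridised to 1 Affymetrix mouse array. Wild-type animals are labelled as strain 129S1/SvJae, whereas the design text calls the controls littermates, so genotype and strain cannot be told apart. The sources used here name no Cre or promoter and do not say which part of Ppard, the gene of PPARβ/δ, was disrupted. Pooling leaves 1 value per gene and genotype. There is therefore no spread between animals, no SD and no test, and each difference below describes these 2 arrays. In whole tissue, fewer endothelial cells and less RNA per cell cannot be told apart.

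Endothelial cells form the inner lining of vessels. They are held together by junction proteins such as VE-cadherin, and their growth is directed by vascular endothelial growth factors (VEGFs), angiopoietins and Notch ligands acting on receptors at their surface. Transcription factors of the ETS and SOX families keep endothelial genes active. In adipose tissue the capillary wall also carries lipoprotein lipase and moves the released fatty acids to adipocytes, while lymphatic vessels drain fluid and are marked by Lyve1, Flt4 and Prox1. Several of these genes are not exclusive to endothelium: Cav1 is abundant in adipocytes, Ets1 and Fli1 are active in blood cells, and Lyve1 and Cd93 occur on some myeloid cells.

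Endothelial transcripts were lower in the knockout pool almost throughout. Taking the brightest probe set of each of the 32 measured genes with no floor, 30 were lower in the knockout pool, against 58.3% of all 12394 genes treated the same way. Of the 32, 12 were at least 2-fold lower, against 4.97% of all genes. Among the 23 above the floor on at least 1 array, 22 were lower (55.5% of 6533 such genes were) and 11 were at least 2-fold lower (9.14% were). None of the 23 was at least 2-fold higher, where 13.7% of the 6533 were. The median log2 difference, knockout minus wild type, was -0.93 over the 23, against -0.08 over the 6533. A gene that passes the floor only through the wild-type array must differ to some degree, which holds for Robo4, Flt1 and Calcrl. On both arrays, 20 members were at or above the floor, 19 of them lower in the knockout pool (59% of 5452 such genes were) and 10 at least 2-fold lower (8.84% were). Of the members, 5 lie between -1.1 and -1, close to the 2-fold line. The count past 2-fold was 6 of 23 when all differences were centred on their median (7.70% of all genes then passed), and 5 with the intensity trend removed (7.49%) or with 16 added to each intensity (6.51%). On the same arrays adipocyte markers were lower by a median log2 difference of -1.16, and testis germ cell markers were higher by 4.67. The part of these other tissues' RNA in the endothelial differences was not tested.

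**Figure D1:**
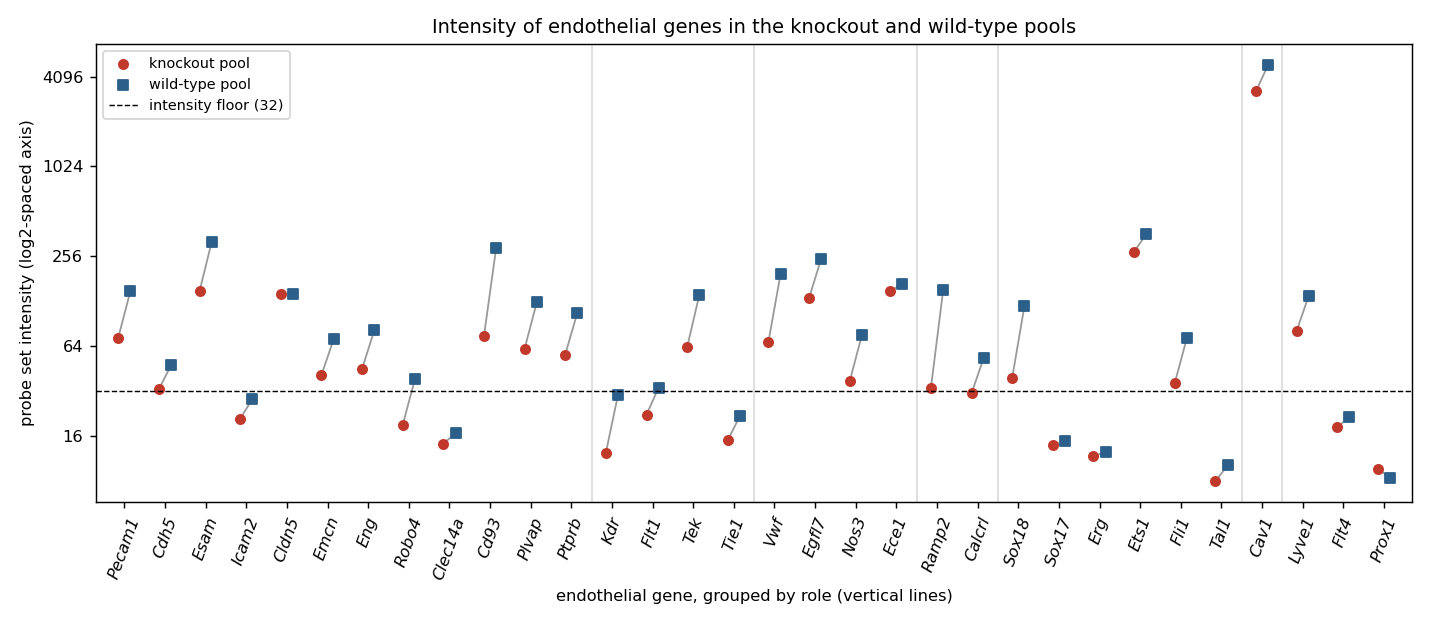
Probe set intensity, on a log2-spaced axis, of the 32 measured endothelial genes in the knockout pool (red circles) and the wild-type pool (blue squares), 1 array each, at the probe set that represents the gene or, for genes below the floor, the brightest one; the dashed line is the floor of 32. The knockout value lies below the wild-type value for all genes but Cldn5, at 143 and 141, and Prox1, which is under the floor in both.

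The regulatory sequence just before the start of 4 members is shown because ETS factors, 3 of which are among the members, bind a core of GGAA. These are the 250 bases upstream of the start, from RefSeq on build GRCm38.p6, on the strand of the gene, with GGAA or its reverse complement TTCC in capitals. Tek (chr4:94739039-94739288, plus strand), Robo4 (chr9:37401722-37401971, plus strand) and Emcn (chr3:137340828-137341077, plus strand) were lower in the knockout pool, while Cldn5 (chr16:18776597-18776846, plus strand) was nearly level.
Tek: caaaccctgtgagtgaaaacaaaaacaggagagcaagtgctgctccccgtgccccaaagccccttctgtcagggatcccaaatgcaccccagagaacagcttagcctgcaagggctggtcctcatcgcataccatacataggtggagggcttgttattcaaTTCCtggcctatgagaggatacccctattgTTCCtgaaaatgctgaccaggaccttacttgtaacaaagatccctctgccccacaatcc
Robo4: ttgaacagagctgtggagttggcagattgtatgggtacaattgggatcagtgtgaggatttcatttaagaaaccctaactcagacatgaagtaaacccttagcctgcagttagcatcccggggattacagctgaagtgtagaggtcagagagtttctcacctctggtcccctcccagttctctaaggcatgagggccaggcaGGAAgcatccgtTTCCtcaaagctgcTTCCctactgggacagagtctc
Emcn: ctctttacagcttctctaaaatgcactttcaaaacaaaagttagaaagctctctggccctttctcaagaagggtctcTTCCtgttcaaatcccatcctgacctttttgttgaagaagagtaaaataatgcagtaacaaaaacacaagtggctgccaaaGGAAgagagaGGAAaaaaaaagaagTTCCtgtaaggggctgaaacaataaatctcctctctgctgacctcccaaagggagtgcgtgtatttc
Cldn5: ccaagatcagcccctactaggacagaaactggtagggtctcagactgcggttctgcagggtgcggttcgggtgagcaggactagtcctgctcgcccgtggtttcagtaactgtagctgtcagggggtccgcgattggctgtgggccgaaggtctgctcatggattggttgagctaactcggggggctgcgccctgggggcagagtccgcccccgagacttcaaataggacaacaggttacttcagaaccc
The core stood 2 times in the Tek window, 3 times in that of Robo4, 4 times in that of Emcn and 0 times in that of Cldn5. The RefSeq table held 27 windows for 17 of the members, and 23 of the 27 (85.2%) contained GGAA on either strand, against 93.4% of all 32851 windows of the same length. The 4 genes shown were selected from these 17 without a rule set beforehand, so the contrast in their core counts does not describe the 17. Of the 17, 16 had the core in at least 1 window, among them Ece1, 1.11-fold lower at its brighter probe set. Cldn5 was the gene without it, and a link between the core and the differences was not tested. The longer form CAGGAA, which includes the core, was in 10 of the 27 (37%) and in 25.7% of all windows, among them those of Tek, Robo4 and Emcn. The SOX-type motif AACAAT was in 4 of the 27 (14.8%, against 9.42% of all), the GATA-type motif AGATAA in 2 (7.41%, against 9.99%) and the forkhead-type motif TGTTTAC in 0 (against 3.17%). All motifs were searched on both strands, and a match describes the letters of the window only.

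Surface and junction genes made up the largest group, and 9 of its 10 members above the floor were lower (median log2 difference -0.98 over the 10), beside 55.5% of all such genes. Robo4 is 1 of the 10 and passed through the wild-type array alone. Of the 9 at or above the floor on both arrays 8 were lower (median -0.93), beside 59% of all such genes. Cd93, a C-type lectin-like receptor of endothelial and myeloid cells, had an intensity of 74.3 in the knockout pool and 290.1 in the wild-type pool, 3.90-fold lower. Only 0.980% of the 6533 genes had a difference as low. A second Cd93 probe set was below the floor in both pools, at 12.4 in the knockout pool and 14.1 in the wild-type pool. Esam, an adhesion molecule of endothelial tight junctions, was at 149 in the knockout pool and 319 in the wild-type pool, 2.15-fold lower.

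Pecam1, the platelet endothelial adhesion molecule used to mark vessels, was at 72.7 in the knockout pool and 149 in the wild-type pool, 2.05-fold lower. Plvap, which forms the diaphragms of fenestrae and caveolae, was at 61.2 and 125 in the knockout and wild-type pools, 2.05-fold lower. These ratios lie just past 2-fold, as does that of Robo4 as measured. This guidance receptor of endothelium was at 18.8, below the floor, in the knockout pool and at 38.2 in the wild-type pool, so that the ratio against the floor is at least 1.19-fold lower.

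The remaining surface genes were less than 2-fold lower. Ptprb, the phosphatase that restrains angiopoietin signalling, was at 55.9 in the knockout pool and 107 in the wild-type pool, 1.91-fold lower. Eng, a co-receptor for TGF-β family ligands, was at 44.7 in the knockout pool against 81.3 in the wild-type pool, 1.82-fold lower. Emcn, a sialomucin of capillaries and veins, was at 40.7 in the knockout pool and 70.8 in the wild-type pool, 1.74-fold lower. The difference was smaller for Cdh5, which encodes VE-cadherin itself: its brighter probe set gave 32.8 in the knockout pool, barely above the floor, and 47.4 in the wild-type pool, 1.45-fold lower.

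Cldn5, the claudin of endothelial tight junctions, was the only member above the floor that was not lower. Its single probe set gave 143 in the knockout pool and 141 in the wild-type pool, a log2 difference of 0.01. The difference stayed between 0.01 and 0.17 under every alternative tried. Icam2, an adhesion molecule for leukocytes, was at 20.8 in the knockout pool and 28.0 in the wild-type pool, both below the floor. Both probe sets of Clec14a, a lectin-like protein of vessels, were also below it, at 11.6 and 14.1 in the knockout pool and 18.2 and 16.7 in the wild-type pool.

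Of the receptor tyrosine kinases, Tek was the best measured. Tek, the angiopoietin receptor, was at 62.7 in the knockout pool and 140.3 in the wild-type pool, 2.24-fold lower. Its partner Tie1 was at 14.9 in the knockout pool and 21.7 in the wild-type pool, both under the floor. The VEGF receptors were dim. Kdr, the main signalling receptor for VEGF-A, was at 12.3 in the knockout pool and 30.1 in the wild-type pool, both below the floor, so no ratio is given. Flt1, which also serves as a decoy for VEGF-A, was at 22.1 in the knockout pool and 33.6 in the wild-type pool at its brightest probe set, at least 1.05-fold lower against the floor. The other 2 Flt1 probe sets were below the floor on both arrays.

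Both genes of the adrenomedullin receptor were lower. Ramp2, the accessory protein that gives the receptor its ligand preference, was at 33.5 in the knockout pool and 150.7 in the wild-type pool, 4.50-fold lower and the lowest of all members. Only 0.628% of the 6533 genes were as low. This value comes from the 1 probe set annotated to Ramp2 alone. A pair of further probe sets annotated to both Ramp2 and Vps25 gave 333 and 133 in the knockout pool and 341 and 152 in the wild-type pool, log2 differences of -0.04 and -0.19, and the signal of the 2 genes cannot be separated there. Calcrl, the receptor subunit that pairs with Ramp2, was at 30.7, below the floor, in the knockout pool and at 53.2 in the wild-type pool, at least 1.66-fold lower.

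All 4 secreted factors and enzymes were lower too, by -0.96 on the log2 scale at the median. With the intensity trend removed 3 of the 4 were lower, Ece1 then being at 0.01. The median was -1.52 without probe sets named _a_at, _s_at or _x_at, a setting that leaves out Egfl7 and the brighter Ece1 probe set. Vwf, the clotting protein stored in endothelial granules, was at 67.8 in the knockout pool and 194 in the wild-type pool, 2.87-fold lower. Nos3, the endothelial nitric oxide synthase, was at 37.0 in the knockout pool and 75.3 in the wild-type pool, 2.04-fold lower. Egfl7, a matrix-bound factor of growing vessels, had 4 probe sets above the floor. The brightest gave 134 in the knockout pool and 247 in the wild-type pool, 1.84-fold lower, and the log2 difference lay between -0.98 and -0.86 at all 4.

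The probe sets of Ece1, the enzyme that activates endothelin, did not agree. The brighter one was at 150 in the knockout pool and 166 in the wild-type pool, 1.11-fold lower. The dimmer one was at 38.4 in the knockout pool and 110 in the wild-type pool, a log2 difference of -1.52. Among the members with several probe sets above the floor, Egfl7, Ece1 and Ets1, the SD of the log2 difference across a gene's probe sets was 0.07 at the median and 0.97 for Ece1. Over all 2137 genes with several such probe sets the median SD was 0.25 and the 90th percentile 0.75.

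**Figure D2:**
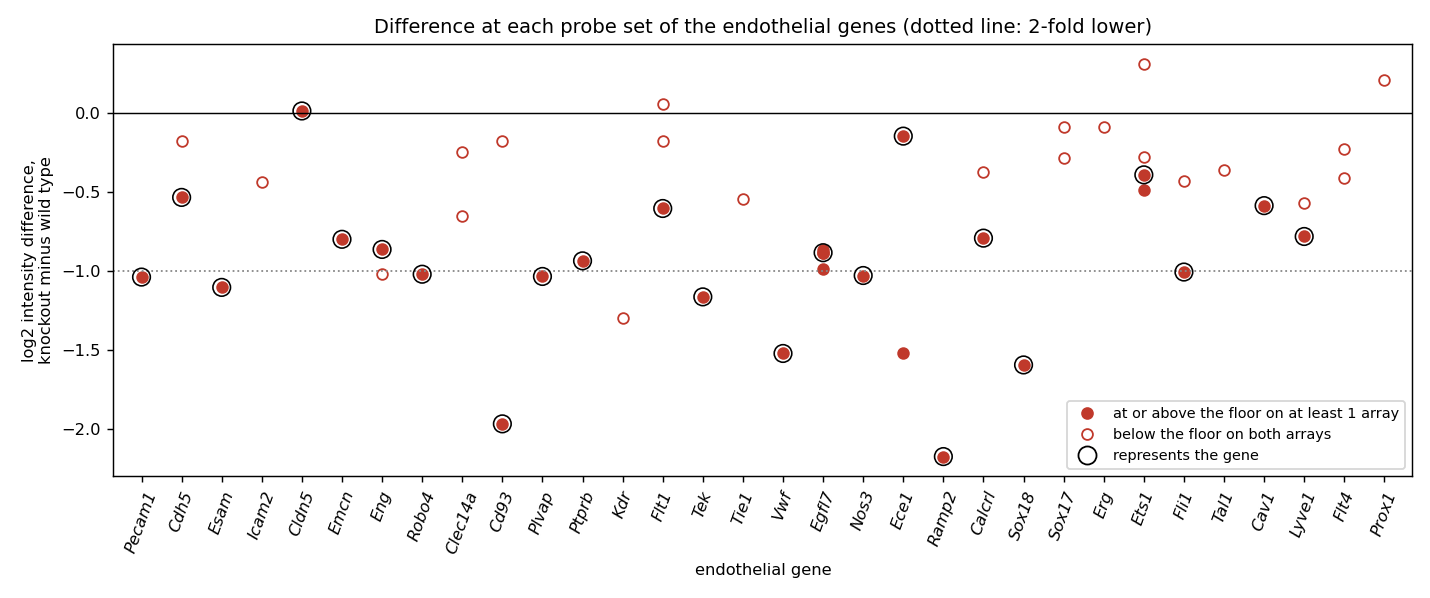
Log2 intensity difference, knockout minus wild type, at each of the 50 probe sets of the 32 endothelial genes; filled circles reached the floor on at least 1 array, open circles stayed below it on both, and a black ring marks the probe set that represents the gene. Of the 50 probe sets 46 lie below 0, and the 2 probe sets of Ece1 are far apart at -0.15 and -1.52.

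At the level of single probe sets, 46 of 50 were lower in the knockout pool, against 59.7% of all 22690. Of the 28 that reached the floor 27 were lower, and of the 22 dim ones 19. The background correction pulls dim values towards a common low level, and no fold is given for them. The 4 probe sets that were higher in the knockout pool were that of Cldn5, and dim ones of Flt1, Ets1 and Prox1.

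Transcription factors divided into those measured and those too dim. Sox18, which acts in vessel and lymphatic development, was at 39.1 in the knockout pool and 118 in the wild-type pool, 3.01-fold lower. Fli1, an ETS factor of endothelium and blood cells, was at 36.0 in the knockout pool and 72.3 in the wild-type pool, 2.01-fold lower. Ets1, the founding ETS factor, was less different at 274 in the knockout pool and 359 in the wild-type pool, 1.31-fold lower. A second bright Ets1 probe set gave 214 in the knockout pool and 300 in the wild-type pool. Sox17, Erg and Tal1 were below the floor on both arrays, with no value above 14.7 for Sox17, 12.4 for Erg and 10.1 for Tal1.

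Cav1, the coat protein of caveolae in both endothelial cells and adipocytes, was at 3278 in the knockout pool and 4919 in the wild-type pool, 1.50-fold lower. It supplied most of the summed intensity of the members, which was 4937 in the knockout pool and 8037 in the wild-type pool. Without Cav1 the sums over the other 22 genes above the floor were 1660 in the knockout pool and 3118 in the wild-type pool, a ratio of 0.53.

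Of the lymphatic genes Lyve1 alone was measured. Lyve1, the hyaluronan receptor of lymphatic endothelium and some macrophages, was at 80.8 in the knockout pool and 139 in the wild-type pool, 1.72-fold lower. Flt4, the receptor for VEGF-C, reached 18.2 in the knockout pool and 21.3 in the wild-type pool at its brighter probe set. Prox1, the factor that gives lymphatic identity, was at 9.58 in the knockout pool and 8.29 in the wild-type pool. Because both are below the floor, the lymphatic group rests on a gene that macrophages share. In a further list of 8 lymphatic genes, 2 reached the floor: Pdpn, a mucin-like protein also made by mesothelium and fibroblasts, was at 66.0 in the knockout pool and 49.5 in the wild-type pool, and Reln was at 33.4 in both.

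Other genes of the vessel wall, from 6 lists that hold none of the members, showed the same direction on balance. Of 56 genes above the floor 48 were lower in the knockout pool, 22 of these by 2-fold or more, with a median log2 difference of -0.83. Background over all such genes is the same 55.5% and 9.14%. For 10 of the 56 the floor was reached through the wild-type array alone, which fixed their direction, and for Lmf1 through the knockout array alone. On the 45 genes at or above the floor on both arrays, 38 were lower in the knockout pool and 17 of these by 2-fold or more, beside 59% and 8.84% of all genes measured on both, and their median log2 difference was -0.78. These lists also hold genes of adipocytes and stroma.

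Among the vascular ligands 6 of 9 were lower, beside 55.5% of all 6533 genes. Vegfc passed through the wild-type array alone, which fixed its direction. Of the 8 at or above the floor on both arrays 5 were lower, beside 59% of all 5452 such genes. The direction of this list was thus close to that of all genes. Vegfb, which binds Flt1, was at 72.1 in the knockout pool and 160 in the wild-type pool, 2.21-fold lower. Vegfd, a ligand of Flt4, was at 40.3 in the knockout pool and 84.8 in the wild-type pool, 2.10-fold lower. Cxcl12, a chemokine of stroma and endothelium, was at 164 in the knockout pool and 386 in the wild-type pool, 2.35-fold lower. Efnb2, an ephrin of arterial endothelium, was the highest of this list, at 38.2 in the knockout pool and 34.0 in the wild-type pool.

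All 8 further vascular receptors above the floor were lower, by a median log2 difference of -0.76. For 3 of the 8, Acvrl1, S1pr1 and F2r, the direction was fixed by passing through the wild-type array alone; with dim values raised to the floor the median was -0.56, and the other 5 were all lower with 1 past 2-fold. Adgrl4, an adhesion G protein-coupled receptor of endothelium, was at 50.9 in the knockout pool and 143.0 in the wild-type pool, 2.81-fold lower. The thrombin receptor F2r was at 29.7, below the floor, in the knockout pool and at 67.5 in the wild-type pool, at least 2.11-fold lower, while its other probe set above the floor differed by -0.30 on the log2 scale. Acvrl1, a BMP receptor that works with Eng, was at 19.0, below the floor, in the knockout pool and at 41.5 in the wild-type pool, at least 1.30-fold lower. Notch1 differed least, at 226 in the knockout pool and 272 in the wild-type pool.

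Of 13 further transcription and target genes 12 were lower, as were 9 of the 10 at or above the floor on both arrays. Sox7, the close relative of Sox18, was at 13.1, below the floor, in the knockout pool and at 69.4 in the wild-type pool, at least 2.17-fold lower. Id1 and Id3 encode inhibitors of helix-loop-helix factors and respond to BMP signals in many cell types. Id1 was at 87.6 in the knockout pool and 292 in the wild-type pool, 3.33-fold lower. Id3 was at 106 in the knockout pool and 744 in the wild-type pool, 7.03-fold lower. Foxo1, a forkhead factor of insulin and growth factor signalling, had intensities of 49.6 in the knockout pool and 116 in the wild-type pool, 2.34-fold lower. Klf4 was the exception, at 431 in the knockout pool and 382 in the wild-type pool.

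Each of 13 further surface genes was lower, with a median log2 difference of -1.15, and 7 passed 2-fold. Of the 13, 11 were at or above the floor on both arrays, and 6 of these passed 2-fold. Mcam, an adhesion molecule of endothelium and pericytes, was at 138 in the knockout pool and 776 in the wild-type pool, 5.64-fold lower. Thbd, thrombomodulin, which turns thrombin towards anticoagulant action, was at 402 in the knockout pool and 1636 in the wild-type pool, 4.07-fold lower. Its partner Procr, the protein C receptor, was at 37.0 in the knockout pool and 90.6 in the wild-type pool, 2.45-fold lower.

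The other 4 surface genes past 2-fold were Tm4sf1, Rhoj, Gng11 and Cd34. Tm4sf1, a tetraspanin-like protein, was at 125 in the knockout pool and 455 in the wild-type pool, 3.64-fold lower. Cd34, a sialomucin of endothelium and stromal progenitors, was at 335 in the knockout pool and 746 in the wild-type pool, 2.23-fold lower. Cd34 and Mcam are therefore not markers of endothelium alone. Gng11, a G protein subunit, was at 38.8 in the knockout pool and 89.5 in the wild-type pool, 2.31-fold lower. Rhoj, a small GTPase of endothelial migration, was at 27.3, below the floor, in the knockout pool and at 89.9 in the wild-type pool, at least 2.81-fold lower. Vcam1 differed least, at 57.9 in the knockout pool and 72.4 in the wild-type pool, and its probe sets differed in sign, from -0.32 to 0.46. The adhesion genes Sele, Selp and Icam1, which inflamed endothelium turns on, were below the floor in both pools.

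Genes by which capillaries and adipocytes pass fatty acids on were lower in 9 of 11 cases, and 5 passed 2-fold. On both arrays 9 were at or above the floor, 8 of them lower and 4 past 2-fold. Slc27a1 passed through the wild-type array alone, which fixed its direction. Lpl and Fabp4 of this list are also counted among the adipocyte genes. Cavin1 was at 569 in the knockout pool and 1733 in the wild-type pool, 3.05-fold lower. Cavin2 was at 1635 in the knockout pool and 3867 in the wild-type pool, 2.37-fold lower, and Cav2 at 3913 in the knockout pool and 7925 in the wild-type pool, 2.03-fold lower. Meox2, a homeobox factor of capillary endothelium that promotes fatty acid uptake, was at 59.5 in the knockout pool and 139 in the wild-type pool, 2.34-fold lower. Slc27a1, a fatty acid transporter, was at least 2.03-fold lower. Lmf1, needed for the maturation of lipoprotein lipase, was highest, at 36.9 in the knockout pool against a value of 21.6, under the floor, in wild type.

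**Figure D3:**
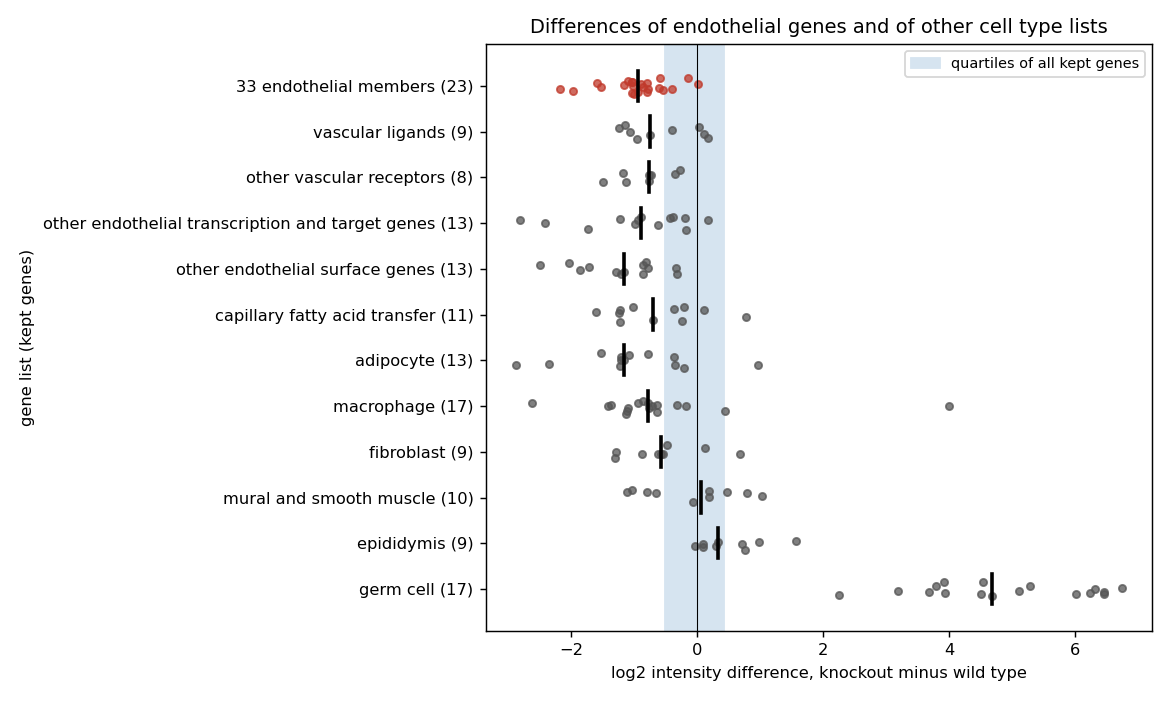
Log2 intensity difference, knockout minus wild type, of each gene above the floor in the endothelial members (red, top), 5 further vascular lists and 6 cell type lists (grey), with the number of genes in brackets; black bars are medians and the blue band spans the quartiles of all 6533 genes, -0.50 to 0.42. The endothelial median is -0.93, beside -1.16 for adipocyte and -0.78 for macrophage genes, while germ cell genes centre on 4.67. The further lymphatic list, with 2 genes above the floor and a median of 0.21, is not drawn.

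Markers of other cells differed between the same 2 arrays. Of the 6533 genes above the floor on at least 1 array 55.5% were lower, as were 59% of the 5452 at or above it on both. Adipocyte genes were lower in 12 of 13 cases, with a median of -1.16 and a summed intensity of 42470 in the knockout pool and 65633 in the wild-type pool. Macrophage genes were lower in 15 of 17, with a median of -0.78. For 4 of the 17 the floor was reached through the wild-type array alone, which fixed their direction. Of the 13 at or above the floor on both arrays 11 were lower. The 17 summed to 5382 in the knockout pool and 6213 in the wild-type pool. Without Aif1, which was 16.0-fold higher and was left out after its value was seen, the sum was 3724 in the knockout pool and 6109 in the wild-type pool. Fibroblast genes were lower in 7 of 9 (median -0.57), with sums of 13528 in the knockout pool and 19678 in the wild-type pool. On both arrays 8 fibroblast genes were at or above the floor, and 6 of these were lower.

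Genes from neighbouring organs were mostly higher in the knockout pool, germ cell genes by far more than epididymis genes. All 17 germ cell genes above the floor were higher in the knockout pool, with a median log2 difference of 4.67 and a summed intensity of 72626 in the knockout pool and 3887 in the wild-type pool. Tssk1, Tssk2, Cetn1 and Gk2 passed through the knockout array alone, which fixed their direction. The 13 at or above the floor on both arrays were all higher, with a median of 4.53. Of all 6533 genes above the floor 2902 were higher. Of 9 epididymis genes 8 were higher, with a median of 0.33 and sums of 57141 in the knockout pool and 49122 in the wild-type pool. This median lay within the quartiles of all 6533 genes, -0.50 to 0.42. Of the 9, 1 was at least 2-fold higher, where 13.7% of the 6533 were. No list was compared with another by a test, since 1 array per genotype allows none.

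Ppard itself was below the floor, at 6.27 in the knockout pool and 6.58 in the wild-type pool, and gives no check of the genotype labels. Over all probe sets the median intensity was 23.0 in the knockout pool and 22.3 in the wild-type pool, and 43.1% and 42.0% of probe sets reached the floor in these pools. The spiked control cre differed by 0.02 at each of its probe sets and bioD by 0.05 and 0.06, whereas the 3 probe sets of the spiked control dap differed by -0.62 to -1.03. The dap control is a bacterial sequence, and its probe sets differed by as much as many endothelial genes. The cause of the dap difference was not tested. The actin ratio of 3' to 5' probe sets, which rises as RNA degrades, was 2.48 in the knockout pool and 2.30 in the wild-type pool.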

How the data were processed

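Total RNA was extracted with TRIzol, pooled per genotype and labelled with biotin, per the labels' protocols. Per the submitters' processing notes, the authors used GCRMA 2.20, which subtracts sequence-based background, equalises array distributions and summarises probes. The deposited intensities are linear; the sources used here do not say how they left the log2 scale. Of 22690 probe sets, 20393 named 1 gene, 691 several and 1606 none. Of the 20393, 20364 took their symbol through a matched Entrez identifier. Here log2 of each intensity was taken. A probe set was kept if either array reached log2 5 (intensity 32), and the brightest kept probe set represented its gene. Differences are knockout minus wild type, and a fold against a value under the floor is a bound set at the floor. Python 3.11.15 and pandas 2.3.3 were used, and the calculation was tested on simulated data. There are 2 arrays, which limits the precision.

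The members and lists were chosen with earlier results of these data known. The named genes are all members, Ppard and, from other lists, genes at least 2-fold different or at either end. Sele, Selp, Icam1 and Rgs5 were picked after their values were seen, as was the macrophage sum without Aif1. Alternatives changed the floor, the choice of probe set, centring, the intensity trend and the pseudocount.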

Additional observations from a re-analysis of the deposited data

How the results depend on the processing

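With 1 pooled array per genotype, no alternative measures the spread between animals, and no replicate could be left out. Of the members above the floor 22 of 23 were lower. With the same 23 the number was 21 or 22 under the alternatives, and it was between 16 of 17 and 30 of 32 where the floor or the probe sets changed. The members' median ranged from -1.03 to -0.76 over the 9 alternatives. The number at least 2-fold lower, 11 as reported, was 6 with differences centred on the median of all genes, 5 with the trend on intensity removed and 5 with 16 added to each intensity before log2. The share of all genes past 2-fold was then 7.70%, 7.49% and 6.51%. Under the other 6 alternatives 10 to 12 members passed 2-fold. Ece1 depended on its probe set, at -0.15 for the brighter and -0.83 for the mean. It was -1.52 for the dimmer, which alone remained without probe sets named _a_at, _s_at or _x_at. With the trend removed Ece1 was at 0.01. With dim values raised to the floor, Robo4 differed by -0.25 and Flt1 by -0.07. Signal close to background limits Cdh5, Ramp2, Fli1, Nos3 and Sox18, whose knockout values were 32.8, 33.5, 36.0, 37.0 and 39.1 against the floor of 32.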

Other observations

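In the list of mural and smooth muscle genes, whose cells wrap vessels, 5 of 10 above the floor were lower in the knockout pool and 5 higher, beside 55.5% of all such genes lower. Abcc9 was the lowest, at 16.5, below the floor, in the knockout pool and at 35.6 in the wild-type pool, at least 1.11-fold lower. It passed through the wild-type array alone, which fixed its direction. On both arrays 9 were at or above the floor and 4 of these were lower, beside 59% of all such genes. Pdgfrb, the receptor that recruits pericytes, was at 223 in the knockout pool and 455 in the wild-type pool, 2.04-fold lower. Rgs5, a regulator of G protein signalling abundant in pericytes, was at 1099 in the knockout pool and 1904 in the wild-type pool. Myh11, smooth muscle myosin, was at 450 in the knockout pool and 219 in the wild-type pool, 2.05-fold higher. Epididymis and testis also hold smooth muscle, and its part in these values was not tested.

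Of 4 measured genes of red blood cells, which fill the vessels, 3 reached the floor, each through the wild-type array alone, so that their direction was fixed by the filter. With dim values raised to the floor their median log2 difference was -0.69, and 1 of the 3 was past 2-fold. Alas2, the haem synthesis enzyme of erythroid cells, was at 21.7 in the knockout pool and 155 in the wild-type pool, at least 4.83-fold lower. Slc4a1, the anion exchanger of red cells, was at 17.8 in the knockout pool and 44.8 in the wild-type pool, at least 1.40-fold lower.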
